A study of Mustela putorius furo with 8 samples.

Results

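CF cluster 6 is a group of cells that the deposited annotation places in the ductal class and that was found almost entirely in the CF culture of day 2. Its members were taken from that annotation by cluster name. It held 494 of the 32945 retained cells of the series, of which 490 came from the CF day 2 library and 4 from the CF day 5 library. The 490 cells were 10.9% of the 4499 CF day 2 cells (95% Clopper-Pearson interval 10.0 to 11.8%), and they are compared here with the other 4009. FOSL1, TNIP3, S100A9 and KRT15 had been proposed as its markers.

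The cells were ferret pancreatic ductal epithelia (PDE) grown from duct cells of newborn ferrets, 1 to 3 days old, that were WT or CF, where CF means the genotype CFTR KO/KO. After repeated passaging, done to remove other cells, they were seeded on inserts, raised to an air-liquid interface, and taken for droplet single-cell RNA sequencing at day 2, 5, 7 or 9. There was 1 library per genotype and day, each holding cells of several donors that are not told apart in the files. No difference between conditions or clusters therefore has a replicate check. Intervals below are 95% counting intervals, which cover the sampling of unique molecular identifiers (UMIs, the counted molecules) or of cells and nothing else.

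Pancreatic ducts are lined by a keratin-rich epithelium that drains the acini and secretes bicarbonate-rich fluid through CFTR. FOSL1 encodes a subunit of the AP-1 transcription factor and is induced by growth factor signalling through ERK. TNIP3 encodes a binding partner of A20 that restrains NF-κB signalling, S100A9 encodes a calcium-binding subunit of calprotectin, and KRT15 encodes a keratin of basal epithelial cells. Squamous, airway and urothelial linings share an arrangement in which basal cells carry KRT5 and TP63, and cells nearer the surface carry membrane mucins such as MUC1.

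The 8 libraries held 1607 to 6224 retained cells and 34735952 to 114585136 UMIs. CFTR, the targeted gene, had 2.50, 8.69, 11.1 and 11.4 UMIs per 1000000 UMIs (CPM) in the CF libraries of day 2, 5, 7 and 9, against 6.57, 16.9, 15.9 and 29.5 CPM in the WT libraries. The study's methods describe this knockout as lacking CFTR mRNA, and CFTR UMIs were counted in every library labelled CF. Where the counted tags lie relative to the targeted part of CFTR is not given in the sources used here, so the genotype labels were not settled by these counts, and CF below means the libraries labelled so. Of the 490 cluster 6 barcodes of day 2, 8 also occurred among retained cells of another library, as did 40 of all 4499 CF day 2 barcodes.

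Cluster 6 cells were deeply sampled. Their median was 25126 UMIs per cell, against 17258 in the other CF day 2 cells, and the cluster summed to 13113037 UMIs against 89215552. Deposited gene counts had a median of 4752.5 genes per cell in cluster 6 and 3988 in the others. Once each cell was thinned to 3000 UMIs, which left out 3 cells of cluster 6 and 36 of the others, the medians were 1319 and 1326 genes. The larger number of genes per cell was thus not seen at equal depth. The median mitochondrial share of UMIs was 7.65% in cluster 6 and 6.94% in the others.

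The ductal label was set beside gene lists. KRT19 and KRT7, keratins of ducts, were at 6330 and 2219 CPM in cluster 6. KRT19 had a UMI in 487 of 487 thinned cells of cluster 6, in 3956 of 3973 of the other CF day 2 cells, and in 721 of 721 of cluster 1, labelled centroacinar. Its detection therefore cannot tell the ductal class from the others. The 6 ductal genes used by the study (KRT15, KRT19, CAPG, KRT5, ADIRF and S100A10) were detected, with log2 ratios to the other CF day 2 cells between -0.11 and 0.56. They summed to 11610 CPM in cluster 6. The sums were 13910, 12460 and 15920 CPM in clusters 1, 20 and 28, labelled centroacinar, and 7814, 7959 and 9380 CPM in clusters 8, 9 and 22, labelled ductal. Some other duct genes were sparse: SOX9 had 50 UMIs, CFTR 24 and ONECUT1 1 over the whole cluster, and AQP1 had 0. They belong to a textbook duct list of 14 genes that also holds KRT19, KRT7 and MUC1. Of the 14, 7 reached 10 CPM in either set, and the list summed to 10650 CPM against 9480 in the other CF day 2 cells.

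Most defining genes of other cell types were at or near 0 in cluster 6, with some list members detected. Of 6 acinar enzyme and acinar factor genes in the matrices, CPB1, PTF1A and BHLHA15 had no UMI and the 6 together reached 0.381 CPM, against 0.202 in the other CF day 2 cells. INS, GCG, PPY, CHGA, CHGB, NEUROG3 and NEUROD1 of the endocrine list, PTPRC, CSF1R, CD3E, CD79A and CSF3R of the leukocyte list, and all 6 endothelial genes had no UMI. These were 7 of 9 endocrine and 5 of 9 leukocyte genes, and the whole lists summed to 25.2 and 23.7 CPM, against 27.2 and 25.5 CPM in the other CF day 2 cells. Nearly all of that came from ISL1, a factor of endocrine and other cells (25.2 CPM), and CD68, a lysosomal protein abundant in macrophages (19.4 CPM). Fibroblast genes summed to 0.534 CPM against 9.94 in the other cells, with COL1A1 at 1 UMI. The study's own acinar list, which holds no digestive enzyme, summed to 931.3 against 883.9 CPM, and its centroacinar list, which includes KRT7 and S100A6, to 21990 against 25760 CPM. The cluster thus had duct keratins and few UMIs of the duct transcription factors, and the study's ductal, acinar and centroacinar lists did not set it apart.

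FOSL1 did not single out cluster 6. Over the 12 CF clusters with at least 50 day 2 cells, it ranged from 21.6 CPM in cluster 4 to 87.8 CPM in cluster 20, and cluster 6 was second at 71.6 CPM (67.1 to 76.3). The intervals of clusters 28 (70.7 CPM) and 24 (65.0 CPM) overlapped that of cluster 6. The other CF day 2 cells together had 46.0 CPM, so the level in cluster 6 was 1.56-fold higher (1.45 to 1.67).

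TNIP3 was likewise highest elsewhere. It had 30.2 CPM in cluster 20, 14.01 in cluster 22 and 13.6 (11.7 to 15.7) in cluster 6, and its lowest level was 2.66 CPM, from 2 UMIs, in cluster 26. The level in cluster 6 was 1.59-fold that of the other CF day 2 cells (1.34 to 1.88) and rested on 178 UMIs. Clusters 22 and 24 could not be told apart from cluster 6 by their intervals.

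S100A9 was more evenly spread. It was at 143.6 CPM in cluster 22, 137.4 in cluster 24 and 132.0 in cluster 6 (125.9 to 138.4), with clusters 10 and 20 at 124.6 and 122.3 CPM and overlapping intervals in each case. The lowest level was 56.4 CPM in cluster 2. Against the other CF day 2 cells at 97.6 CPM, its log2 ratio was 0.43, the smallest of the 4 proposed markers. S100A8, which encodes its calprotectin partner, had 66 UMIs in the whole cluster and did not reach 10 CPM in either set.

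KRT15 followed a different order. Cluster 6 was sixth of 12 with 24.6 CPM (21.9 to 27.4), below clusters 2 (41.8), 26 (41.2), 10 (33.1), 20 (25.9) and 1 (24.7). The intervals of clusters 20 and 1 overlapped that of cluster 6. KRT15 was lowest in clusters 4, 9 and 8, at 2.90, 3.08 and 5.68 CPM. It was 1.498-fold higher than in the other CF day 2 cells as a whole (1.32 to 1.69). None of the 4 genes was thus highest in the cluster proposed for it.

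**Figure D1:**
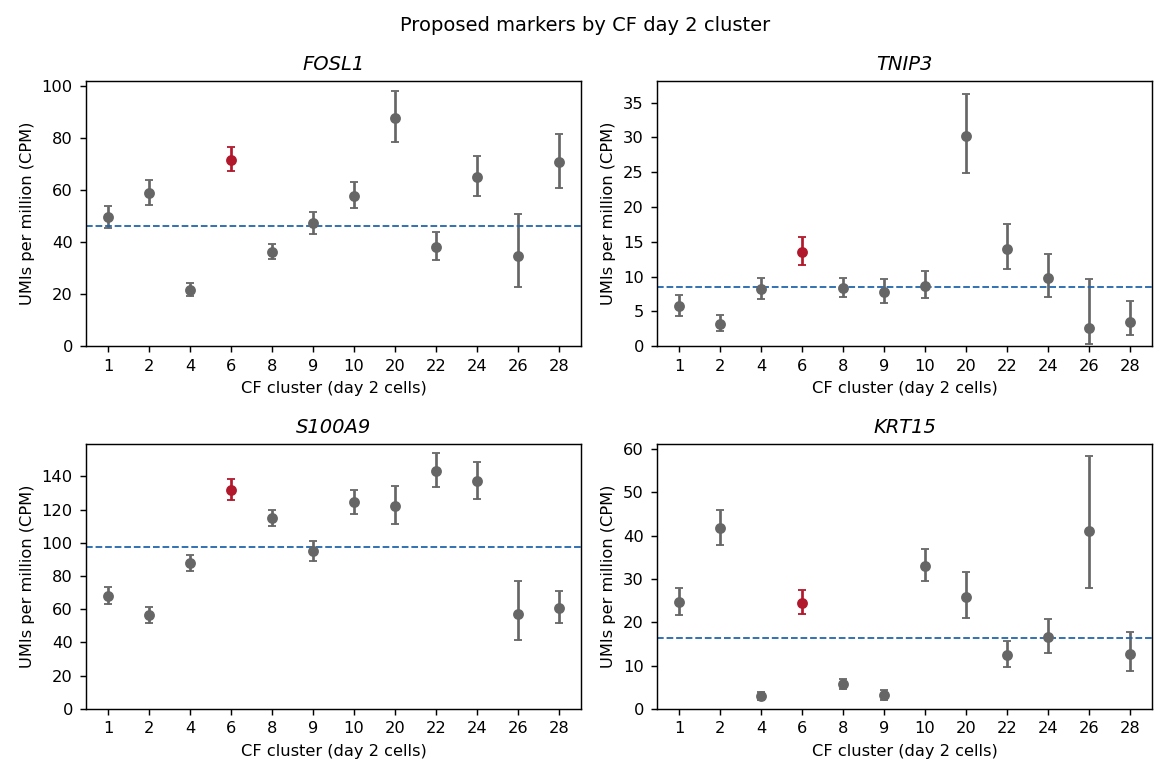
Level of FOSL1, TNIP3, S100A9 and KRT15 (vertical axes, CPM) in the day 2 cells of each CF cluster with at least 50 such cells (horizontal axes, cluster number). Points are levels from summed UMIs, bars are 95% counting intervals, cluster 6 is red and the dashed line is the level of the other CF day 2 cells; cluster 6 ranked 2, 3, 3 and 6 of 12 for the 4 genes.

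In cells thinned to 3000 UMIs, S100A9 had a UMI in 31.8% of cluster 6 cells (27.7 to 36.2%) and 20.9% of the other CF day 2 cells. The FOSL1 shares were 16.2% (13.1 to 19.8%) and 12.9%. KRT15 had a UMI in 6.78% and 4.63%, and TNIP3 in 3.90% and 2.37%. Of the 12 clusters, cluster 6 had the highest S100A9 share at 3000 UMIs, with cluster 22 at 30.4% (24.3 to 37.0%), an overlapping interval. That order did not hold at other depths. At 10000 UMIs cluster 22 had 63.16% and cluster 6 63.12%, and without thinning clusters 8 (91.1%) and 22 (83.7%) were above cluster 6. At 3000 UMIs, FOSL1 shares were higher in clusters 20, 24 and 2 (22.6%, 21.6% and 17.0%). KRT15 shares were higher in clusters 2, 20, 10 and 26 (7.69 to 9.76%), and TNIP3 shares in clusters 20 and 22 (6.3% and 4.2%). Without thinning the cluster 6 shares were 68.6% for FOSL1, 82.0% for S100A9, 29.6% for KRT15 and 26.1% for TNIP3. No CF day 2 cluster is known to lack these genes, so the lowest thinned share is given as a reference: 7.53% for FOSL1 in cluster 4, 5.77% for S100A9 in cluster 26, 0.802% for KRT15 in cluster 9 and 1.11% for TNIP3 in cluster 1, whose median depths were 21151, 13215, 26424 and 13060 UMIs. Any cluster but the lowest lies above such a reference, and the S100A9 value rests on 3 of 52 cells.

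The proposed markers were sparse in single cells. In the 480 cluster 6 cells with at least 10000 UMIs, thinned to that depth, 72 had no UMI of any of the 4 genes, 215 had UMIs of 1 gene, 155 of 2, 34 of 3 and 4 of all 4. The 24 cells with the most KRT15 UMIs held 55.0% of that gene's UMIs, and the same number held 46.7% for TNIP3, 28.7% for FOSL1 and 23.8% for S100A9. Pearson correlations over these cells lay between -0.04 (S100A9 and KRT15) and 0.13 (FOSL1 and S100A9), in sparse counts from 1 library. KRT15, TNIP3, FOSL1 and S100A9 had 129, 75, 307 and 648 UMIs in the thinned cells, and the share held by the top cells depends on that number, so the genes are not ranked by it.

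Against the other CF day 2 cells as a whole, differences past 2-fold were all on the low side of cluster 6. Of 7478 genes with at least 10 CPM in either set, 0 (0%) were at least 2-fold higher in cluster 6 and 76 (1.02%) were at least 2-fold lower, as the log2 ratio of CPM + 1. The median log2 ratio was -0.02, and 90% of the genes lay between -0.37 and 0.23. At a threshold of 1.5-fold, chosen after the values were seen, 14 genes (0.187%) were higher and 174 (2.33%) lower. These same cells and genes were used to form the cluster, so the differences are a description of it.

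**Figure D2:**
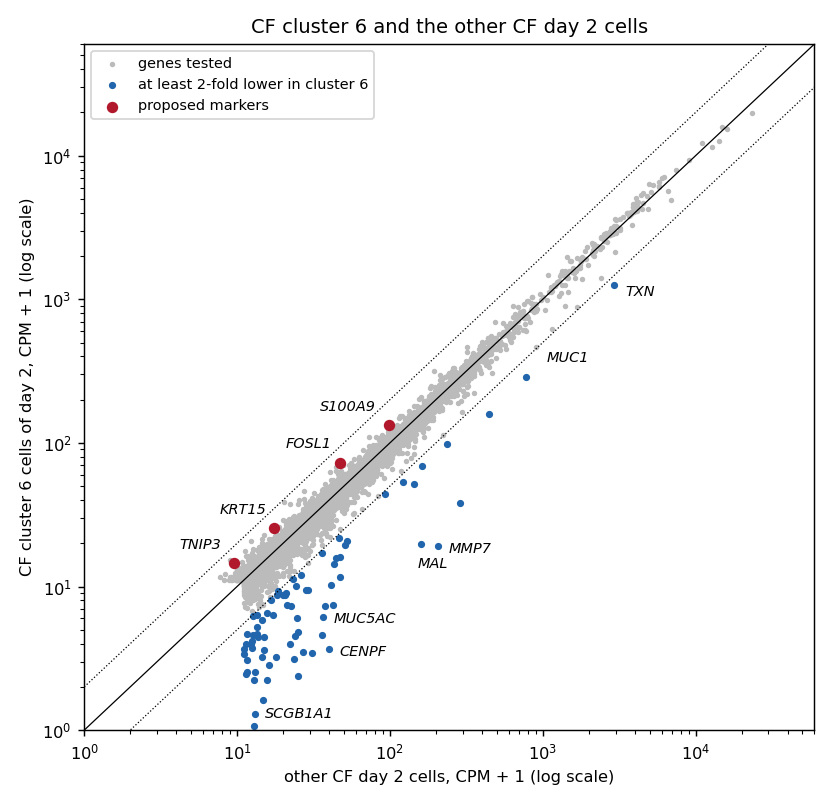
Level of each of the 7478 genes in cluster 6 (vertical axis) and in the other CF day 2 cells (horizontal axis), as CPM + 1 on log axes; the solid line marks equal levels and the dotted lines 2-fold. The 76 genes at least 2-fold lower in cluster 6 are blue and the 4 proposed markers red, and no gene lies above the upper dotted line.

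The 20 genes with the largest log2 ratios spanned 0.54 to 0.92, and 10 of them carry LOC identifiers with no symbol in the files. The first 5 of these were LOC101674920 (37.7 against 19.4 CPM, 1.94-fold, 1.75 to 2.15), LOC101690036 (14.3 against 7.95), LOC101686814 (36.6 against 21.1), LOC101672663 (45.5 against 26.6) and LOC101679442 (19.8 against 11.4). Whether reads of near-identical gene copies were split among such loci was not tested. FOSL1 and TNIP3 ranked 11 and 12, with log2 ratios of 0.63 and 0.61, and KRT15 ranked 18 at 0.56.

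The other named genes of this group covered several roles. ARHGDIB had 38.8 against 24.5 CPM. LRRC26, an auxiliary subunit of calcium-activated potassium channels, had 62.1 against 39.7 CPM. The alarmin cytokine IL1A had 21.8 against 14.1 CPM, a log2 ratio of 0.60. The adhesion receptor gene ADGRF2 had 36.8 against 24.2 CPM, and the gastrokine GKN1 108.4 against 72.4. LY6D, a surface protein of stratified epithelia, had 39.7 against 26.5 CPM, and G0S2, an inhibitor of triglyceride lipase, 463.5 against 318.2. Each interval of these ratios lay above 1, and each ratio was under 2. The genes were picked for their large ratios in the cells that formed the cluster, so nothing is read from those intervals.

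In RefSeq's gene table for ASM1176430v1.1, the ferret build used for the files, the proposed markers are protein-coding genes. FOSL1 spans bases 10797022 to 10805336, TNIP3 1578762 to 1678087, S100A9 6470773 to 6473826 and KRT15 553070 to 557406, and that table names no chromosome for them. UMI sums do not place reads within exons or UTRs.

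Even the highest levels of cluster 6 were close to those of some other cluster. Over 8639 genes with at least 10 CPM in any of the 12 clusters, 36 (0.417%) had their highest level in cluster 6, the fewest of the 12 clusters. The range over the other clusters was 91 genes in cluster 8 to 2318 in cluster 4. The largest lead was that of ADGRF2, 36.8 CPM against 31.2 in cluster 22, a ratio of 1.17 on the CPM + 1 scale. Cluster 6 also had the fewest genes at their lowest level, 50. Sparse counts reach an extreme more easily. Cluster 26, with 52 cells and 752871 UMIs, had 1145 genes at their highest and 1495 at their lowest, and cluster 6 held 13113037 UMIs. What part depth had in these counts was not tested.

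The 15 genes with the lowest log2 ratios included 4 members of the cell cycle lists and 4 LOC genes. SCGB1A1, a secretoglobin of secretory epithelial cells, had 1 UMI in cluster 6 and 1062 in the other CF day 2 cells (0.0763 against 11.9 CPM), a 156-fold difference with an interval of 27.96 to 6171. MMP7, a matrix metalloprotease of glandular epithelia, had 18.3 against 204.4 CPM, 11.2-fold lower (9.83 to 12.7). MAL, a protein of apical membrane transport, had 18.8 against 159.6 CPM, 8.51-fold lower. The other clusters differed widely: cluster 4 had 771 CPM of MMP7 and 521 of MAL, while clusters 1 and 2 were below cluster 6, with 4.21 and 3.92 CPM of MMP7 and 2.29 and 2.74 of MAL. Without cluster 4 the other cells were at 91.5 CPM of MMP7 and 87.6 CPM of MAL, still above cluster 6. The gel-forming mucin MUC5AC had 5.11 against 35.3 CPM, and the secreted enzyme gene PM20D1 1.22 against 11.9 CPM. Cluster 4 had 39.7 CPM of SCGB1A1, 93.75 of MUC5AC and 40.9 of PM20D1. Cluster 1 was below cluster 6 for MUC5AC (1.34 CPM) and for PM20D1 (0.383 CPM, from 4 UMIs). The LOC genes were LOC123392058, LOC101676065, LOC101693702 and LOC101676601, with log2 ratios of -3.34, -3.18, -2.93 and -2.91. Just inside the 2-fold limit stood TM4SF5 at -1.00194, and just outside it CES1 at -0.996484.

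Cell cycle genes were at the level of non-dividing cells. MKI67, a protein of dividing cells, had 8 UMIs in cluster 6 (0.610 CPM) against 13.8 CPM in the others. CENPF and TOP2A, which act at kinetochores and in chromosome untangling, had 2.67 against 38.7 and 1.37 against 24.1 CPM. Of 8 G2/M genes tested 6 were 2-fold lower, and of 9 S phase genes 4 were, beside 1.02% of all genes tested, with medians of -2.37 and -0.99 beside -0.02 for all genes. Without thinning, MKI67 had a UMI in 7 of 490 cluster 6 cells (1.43%, 0.576 to 2.92%) and in 8.83% of the other cells. At 3000 UMIs per cell the shares were 0 of 487, which at that depth allows up to 0.616% of cells with a UMI, and 2.54%. The contrast came from clusters 9, 10 and 24: the G2/M list summed to 39.4 CPM in cluster 6, to 28.6 to 56.0 CPM in 8 other clusters, and to 214.7, 253.5 and 2483 CPM in those 3. Without them the medians were -0.12 for G2/M and 0.21 for S phase.

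The mucous and secretory list summed to 605.9 CPM in cluster 6, below clusters 4, 8, 9 and 22 (1381 to 2795 CPM) and above the other 7 clusters (116.9 to 426.2 CPM). Against the other CF day 2 cells as a whole, 3 of 6 tested genes (SCGB1A1, MUC5AC and MUC4) were 2-fold lower and the median log2 ratio was -1.26, or -0.43 with equal weight per cluster. MUC1, a transmembrane mucin, had 462.1 against 898.6 CPM, MUC16 62.8 against 117 CPM, MUC4 14.9 against 46.0 CPM, and AGR2, a chaperone of mucin folding, 55.9 against 91.1 CPM. Of 8 tested centroacinar progenitor genes of the study, 2 were 2-fold lower (MUC4 and MUC5AC, both also in the mucous list), with a median of -0.69. The share of all tested genes at least 2-fold lower was 1.02%. Leaving out cluster 4, the median of the mucous list was -0.53 and MUC4 was still at 14.9 against 31.3 CPM.

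Of 8 interferon-induced genes tested, 4 were 2-fold lower in cluster 6, beside 1.02% of all genes tested: ISG15 (10.6 against 46.3 CPM), MX2 (8.46 against 27.4), ISG20 (97.2 against 237) and IFIT3 (7.02 against 15.7). IFI6 had 625.3 against 1149 CPM. The list summed to 851.6 CPM in cluster 6, above clusters 1, 2, 10, 24, 26 and 28 (667.9 to 798.3 CPM). It was below clusters 9, 20 and 22 (984 to 1075 CPM), 8 (1992 CPM) and 4 (4059 CPM). Cluster 4 had the highest level of IFI6, 2970 CPM, and of ISG15, 161.1 CPM. Without cluster 4 the list median was -0.33 in place of -0.97, and 2 of those 4 genes were still 2-fold lower: ISG15 (10.6 against 23.4 CPM) and MX2 (8.46 against 19.5 CPM). ISG20 was then at -0.65, and IFIT3 was slightly higher in cluster 6, at 0.0692. Of 10 redox genes tested 1 was 2-fold lower, TXN, which encodes thioredoxin, with 1259 against 2932 CPM, followed by PRDX1, a peroxiredoxin gene, with a log2 ratio of -0.76. The redox list summed to 3888 CPM in cluster 6, above clusters 1, 2, 10, 20, 26 and 28 (2805 to 3781 CPM). It was below clusters 24 (3987 CPM), 22 (5231), 9 (6780), 8 (9715) and 4 (13850).

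For lists around the proposed markers, counts of 0 genes at 2-fold are close to the background of 0% higher and 1.02% lower, so the NF-κB, AP-1 and basal counts below say nothing particular about those lists. Of 10 tested AP-1 subunits 0 were 2-fold higher or lower, with a median log2 ratio of 0.11. FOSL1 at 0.63 was followed by JUN (466 against 396 CPM, 0.23) and MAFF (0.23), and the list ended with FOS (374 against 456 CPM, -0.29) and JUND (-0.50). Immediate early genes, the first transcripts after a stimulus, had a median of 0.20 over 13 genes, with IER3 at 0.45, BTG2 at 0.43 and EGR1 at -0.01. The EGFR ligand and ERK feedback list had a median of 0.09 over 13 genes, with DUSP5 at 0.35, HBEGF at 0.31 and EREG at -0.29.

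Of 15 NF-κB genes tested, 0 were 2-fold higher or lower and the median was 0.12, with members on both sides of 0. NFKBIA, the inhibitor that NF-κB itself induces, had 1467 against 1084 CPM (0.44), TNFAIP3, which encodes A20, 0.29, NFKB1 0.27 and BIRC3 -0.15. Among 6 tested inflammatory mediators IL1A was at 0.60 and PTGS2 at 0.25, with IL1RN at -0.11. CXCL8, IL1B and IL6 had 3, 0 and 0 UMIs in the cluster.

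Of 8 basal genes tested 0 were 2-fold higher or lower, and the median of 0.22 became -0.06 when each other cluster was given equal weight. KRT15 led the list, with ITGA6 at 0.34, COL17A1, a hemidesmosome collagen, at 0.20, TP63 at 0.09 and KRT5 at 0.06. Laminin-332 and integrin genes had a median of 0.15 over 10 genes, led by ITGA6 and LAMB3 (0.28), and of -0.01 with that equal weight. Of 9 tested protease and matrix genes, MMP13, PLAUR and PLAU were at 0.40, 0.38 and 0.36 while MMP7 was at -3.41. CLDN1, a tight junction claudin, had 699.5 against 483 CPM (0.53), and OCLN, occludin, 43.2 against 71.3 CPM (-0.71).

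**Figure D3:**
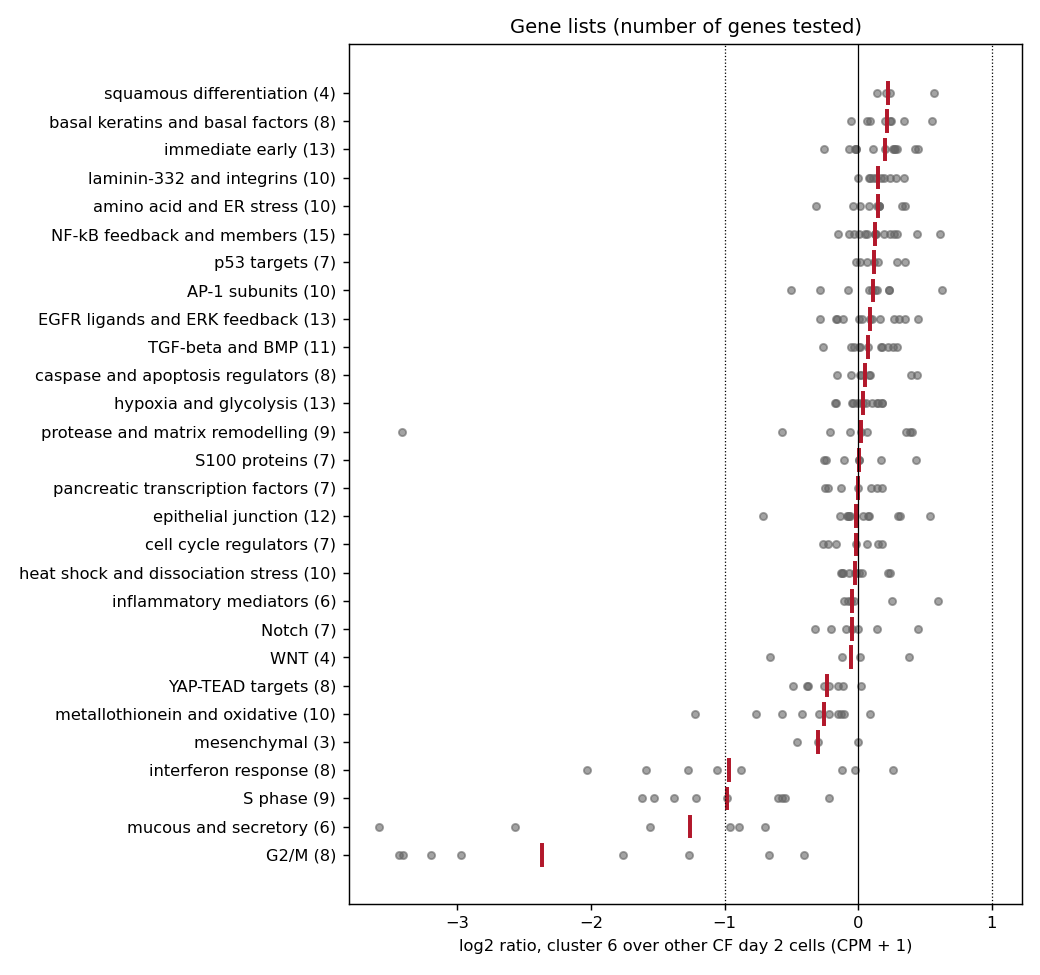
Log2 ratio of each tested gene (grey points, horizontal axis) in 28 gene lists (rows, with the number of genes tested in brackets), cluster 6 over the other CF day 2 cells on the CPM + 1 scale; red bars are list medians and dotted lines mark 2-fold. Medians of G2/M, mucous and secretory, S phase and interferon genes lie between -2.37 and -0.97, and those of the other lists between -0.30 and 0.22.

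Cluster 6 was intermediate between the basal-like and mucin-rich ends of the CF day 2 culture. KRT5 was at 921.3 CPM in cluster 6, below the 1280 to 2175 CPM of clusters 1, 2, 10, 20, 24, 26 and 28 and above the 78.1 to 511.7 CPM of clusters 4, 8, 9 and 22. TP63 was at 75.9 CPM, again below those 7 clusters (90.5 to 150.3 CPM) and above those 4 (7.76 to 47.1 CPM). MUC1 ran the opposite way, with 462.1 CPM in cluster 6, 66.5 to 295.6 CPM in the first 7 and 1037 to 2047 CPM in the other 4. No counting interval of another cluster reached that of cluster 6 for any of these 3 genes.

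The same position held over many genes. Clusters 2 and 4, chosen after the values were seen, differed at least 2-fold in 1370 genes, 803 higher in cluster 4 and 567 higher in cluster 2. In cluster 6, 1325 of the 1370 (96.7%) had levels between those of clusters 2 and 4. On a log2 scale set to 0 at cluster 2 and 1 at cluster 4, the median gene of cluster 6 was at 0.33, with quartiles of 0.22 and 0.43. Cluster 22 was at 0.64 with 94.8% of genes between, cluster 8 at 0.73 with 91.8%, cluster 10 at 0.22 with 83.9% and cluster 20 at 0.05 with 61.8%. These genes come from the cells that were clustered, so the positions are a description.

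**Figure D4:**
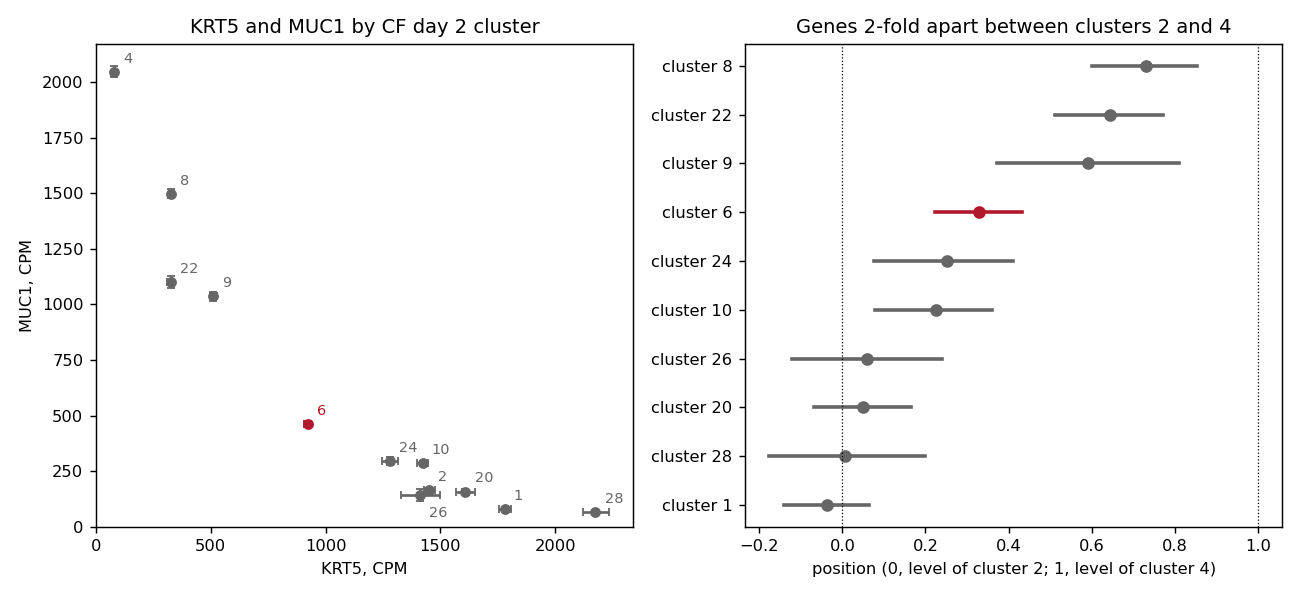
Left, MUC1 (vertical axis, CPM) against KRT5 (horizontal axis, CPM) in the 12 CF clusters with at least 50 day 2 cells, with 95% counting intervals and cluster numbers. Right, median (point) and quartiles (bar) of the position of 1370 genes on a log2 scale from cluster 2 (0) to cluster 4 (1); cluster 6, in red, is at 0.33.

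Both KRT5 and MUC1 were found in the same cells of cluster 6. At 3000 UMIs per cell, 284 of 487 cells (58.3%, 53.8 to 62.7%) had UMIs of both genes, 28.7% of KRT5 without MUC1, 10.3% of MUC1 without KRT5 and 2.67% of neither. The product of the separate shares was 59.7%, and the Pearson correlation of the 2 genes over these cells was -0.16. The share with both was 69.3% in cluster 9, 52.2% in cluster 8, 35.9% in cluster 2 and 12.6% in cluster 4. KRT5, with or without MUC1, had a UMI in 87.1% of cluster 6 cells and in 12.9% of cluster 4 cells. MUC1, with or without KRT5, had a UMI in 68.6% of cluster 6 cells and in 17.3% of cluster 28 cells. The basal list had a median of 7 UMIs per thinned cell in cluster 6 (5th to 95th percentile 2 to 14), 11 in cluster 2 and 1 in cluster 4.

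Depth stood beside this position. The median of 25126 UMIs per cell in cluster 6 was above those of clusters 2 (12893) and 4 (21151) and below that of cluster 8 (39320), and the authors had removed doublets before deposit. What part remaining mixed droplets had in the intermediate levels was not tested.

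The nearest neighbours were clusters 22, 20 and 2. Of 7496 to 7519 genes tested against each of them, 137 (1.83%) differed 2-fold from cluster 22, 144 (1.92%) from cluster 20 and 150 (2.00%) from cluster 2. The Pearson correlation of log2 levels over 8639 genes was 0.98 for each of those 3 clusters, and lowest, 0.92, for cluster 24. Genes are not independent replicates, and these clusters share a library.

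The other clusters stood farther away. Cluster 1 had 152 genes 2-fold higher in cluster 6 (2.03%) and 78 lower (1.04%), cluster 8 had 150 (2.01%) and 139 (1.86%), and cluster 28 had 232 (3.1%) and 155 (2.07%). For cluster 26, with 52 cells, the counts were 282 (3.67%) and 149 (1.94%). Cluster 24, which the annotation calls proliferating acinar, had 35 (0.447%) and 411 (5.25%), and cluster 9 had 582 (7.74%) and 155 (2.06%). Against cluster 4, a centroacinar progenitor cluster, 269 genes were higher in cluster 6 (3.49%) and 435 lower (5.64%). The genes farthest apart in that pair were KRT5 (921.3 against 78.1 CPM) and SFRP1 (145.9 against 13.7) on the high side, and MMP7 (18.3 against 771 CPM) and SCGB1A1 (0.0763 against 39.7) on the low side.

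Against cluster 22, which is also ductal, cluster 6 had 74 genes 2-fold higher (0.987%) and 63 lower (0.84%). The genes named in these pairs were chosen after their values were seen. Among those with higher levels were the WNT antagonist SFRP1 (145.9 against 39.1) and LY6D (39.7 against 10.7). Among those with lower levels were MUC5AC (5.11 against 74.9 CPM), RETNLB (8.39 against 61.2), a secreted resistin-like protein, and PSCA (157.9 against 633.9). Of 8 basal genes 2 were 2-fold higher, and of 5 mucous genes 4 were lower.

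Against cluster 20, which the annotation calls centroacinar, 69 genes were higher (0.918%) and 75 lower (0.997%). MUC16 had 62.8 against 7.54 CPM, the chemokine gene CXCL17 112.2 against 14.6, and SCNN1A, the alpha subunit of the epithelial sodium channel, 52.7 against 8.89. The cytokine genes named on the low side were CXCL6 (2.21 against 21.6 CPM), CCL20 (3.51 against 19.9), LTB (9.76 against 43.1) and CSF2 (3.89 against 18.3). Of 9 inflammatory mediators tested in this pair 4 were 2-fold lower and 1 higher, and of 15 NF-κB genes 2 were lower, with medians of -0.97 and -0.53. Cluster 20 was also the cluster with the highest levels of FOSL1 and TNIP3.

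Against cluster 2, ductal as well, 95 genes were higher in cluster 6 (1.26%) and 55 lower (0.732%). Higher were MUC16 (62.8 against 7.25 CPM), CXCL17 (112.2 against 17.2), MUC4 (14.9 against 1.66) and KRT4, a keratin of non-basal layers (55.7 against 8.62). Lower were EDN2, an endothelin (4.58 against 21.2 CPM), COL18A1 (24.8 against 78.5), the Notch target HEY1 (7.70 against 25.7) and IGFBP3 (323.8 against 987.7). Of 8 Notch genes tested, 5 were 2-fold lower in cluster 6, with a median of -1.13, beside -0.03 for all genes of that pair.

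Against cluster 10, ductal too, the genes with lower levels in cluster 6 held the cell cycle lists. Of 7617 genes 8 were 2-fold higher in cluster 6 (0.105%) and 181 lower (2.38%). All 13 S phase genes tested in this pair were among the lower ones, and 8 of 9 G2/M genes, with the S phase gene RRM2 at 18.5 against 170.7 CPM and the G2/M gene TOP2A at 1.37 against 34.1 CPM. PCLAF and TK1, DNA replication genes outside both lists, had 2.14 against 74.0 CPM and 1.45 against 49.1 CPM. The genes higher in cluster 6 included MUC4 (14.9 against 6.48 CPM), GRHL3, an epithelial differentiation factor (30.6 against 14.4), and MDM2, which restrains p53 (119 against 58.3).

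The proposed markers stood out more against CF cells of other days. With all 494 cells compared with all other CF cells of every day, 17 of 7735 genes were at least 2-fold higher (0.22%) and 235 lower (3.04%). The 17 included FOSL1 (70.9 against 23.8 CPM), TNIP3 (13.4 against 4.14), S100A9 (131.5 against 51.9) and KRT15 (24.3 against 9.80), and also PLAU, KRT4, NR4A1, CD109, PRXL2A and MMP13. In 16 of the 17 the other CF day 2 cells were themselves at least 2-fold above the 6842 later CF cells, where 1.29% of 7910 genes were, and 0 of the 17 were 2-fold higher in cluster 6 than in the other CF day 2 cells. These 17 were selected against a pool made mostly of later cells, which largely fixes that count, so nothing is read from it. For FOSL1 the 3 levels were 71.6 CPM in cluster 6, 46.0 in the other day 2 cells and 11.1 in later CF cells. CD109, a surface protein, had 33.0, 30.7 and 5.84 CPM.

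Day by day, the CF libraries had FOSL1 at 49.3, 15.4, 6.97 and 7.84 CPM on days 2, 5, 7 and 9. S100A9 was at 102.0, 36.8, 15 and 17.5 CPM, TNIP3 at 9.18, 2.24, 1.35 and 0.940 CPM, and KRT15 at 17.4, 10.1, 4.09 and 1.60 CPM. Day 2 was the highest day for each. Of the 20 leading genes, 15 were higher in the CF day 2 library than in every later CF library, against 28.7% of all tested genes. These 20 were picked for their levels in cells of that same library, so nothing is read from that share. LY6D was among the 5 exceptions, at 28.2 CPM on day 2 and 612.3, 436.7 and 578.4 CPM afterwards. Cluster 6 cells were 4 of 2750 on day 5 (0.145%), 0 of 1607 on day 7, which allows up to 0.187%, and 0 of 2489 on day 9, which allows up to 0.121%. Days cannot be told apart from library effects with 1 library per day.

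WT cells carry cluster numbers of their own, and cluster 6 holds CF cells alone. In the WT day 2 library TNIP3 was at 69.9 CPM, S100A9 at 424.2 CPM and KRT15 at 131.0 CPM, which was 5.15-fold (4.44 to 6.01), 3.21-fold (3.06 to 3.37) and 5.34-fold (4.78 to 5.98) above cluster 6. FOSL1 went the other way, at 20.8 CPM in WT day 2, and was 3.44-fold higher in cluster 6 (3.18 to 3.71). Of 13 WT clusters with at least 50 day 2 cells, 0 had FOSL1 above cluster 6, the highest being 50 CPM in WT cluster 35. That value rested on 8 UMIs, and its interval of 21.6 to 98.5 CPM contained the cluster 6 level. TNIP3 was above the cluster 6 level in 12 of the 13, and S100A9 and KRT15 in 10 each. Against the whole WT day 2 library, FOSL1 was thus higher in cluster 6, and the other 3 proposed markers were lower. WT clusters 19, 33 and 11 had the profiles most like cluster 6 (Pearson correlations 0.96, 0.94 and 0.93). There S100A9 went the other way, at 35.2, 59.3 and 39.99 CPM, below cluster 6. KRT15 was below cluster 6 in WT clusters 33, 11 and 13 (5.56, 11.9 and 18.35 CPM) and above it in 19 (34.5 CPM). TNIP3 was above it in 19 and 33, and at 10.5 CPM, from 15 UMIs, in 11.

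Later WT libraries were mixed. FOSL1 was at 15.98, 12.4 and 21.04 CPM on days 5, 7 and 9, and S100A9 at 29.7, 43.3 and 20.1 CPM. TNIP3 was at 5.93, 13.8 and 5.99 CPM and KRT15 at 27.9, 34.1 and 16.8 CPM. The cluster 6 level of TNIP3 (13.6 CPM) and that of WT day 7 had overlapping intervals.

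**Figure D5:**
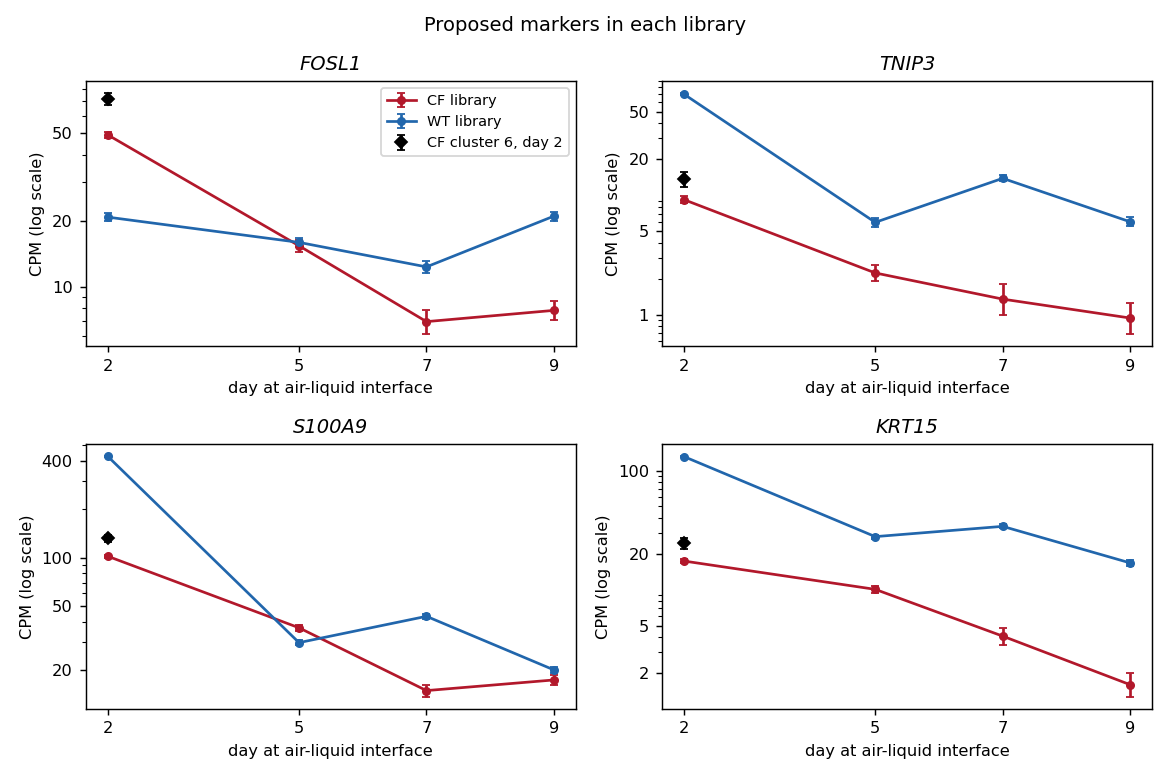
Level of the 4 proposed markers (vertical axes, CPM, log scale) in each CF (red) and WT (blue) library by day at the air-liquid interface (horizontal axes), with cluster 6 of CF day 2 as a black diamond; bars are 95% counting intervals. At day 2 cluster 6 lies above both libraries for FOSL1 (71.6 CPM) and between them for TNIP3, S100A9 and KRT15.

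By overall profile, the WT day 2 cluster most like cluster 6 was WT cluster 19, ductal, with 556 day 2 cells and a Pearson correlation of 0.96 over the same 8639 genes. WT cluster 19 was also the nearest one for CF clusters 1, 2, 20, 26 and 28. It had KRT5 at 954 CPM and KRT19 at 6614 CPM, near the 921.3 and 6330 CPM of cluster 6, TP63 at 141.3 CPM against 75.9, and MUC1 at 162.8 CPM against 462.1. FOSL1 was at 37.9 CPM in WT cluster 19, TNIP3 at 21.6, S100A9 at 35.2 and KRT15 at 34.5 CPM. The likeness is over genes and 1 library per genotype, so genotype and library cannot be told apart.

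The 5 genes whose levels followed FOSL1 most closely over the 12 CF clusters at day 2 were PTK7 (Pearson r of log2 levels 0.92), PLEKHO2 (0.91), ABR (0.91), NCOA5 (0.91) and CLCA2 (0.90). With cluster 6 left out, over 11 clusters, r was 0.93, 0.92, 0.91, 0.90 and 0.92. Over the 8 libraries, which differ in genotype and day, the signs were mixed. There r was 0.61 for PLEKHO2 and 0.30 for ABR, and it was -0.53 for PTK7, -0.23 for NCOA5 and -0.78 for CLCA2. Each had its lowest level in cluster 4, as FOSL1 did, and 4 of the 5 had their highest in cluster 20, NCOA5 having it in cluster 24. CLCA2, a calcium-activated chloride channel regulator of basal epithelium, had 46.7 CPM in cluster 6, 72.5 in cluster 20 and 9.17 in cluster 4. These are the extremes of a search over 8639 genes and clusters of 1 library.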

How the data were processed

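Single-cell libraries of ferret PDE cultures were analysed from the UMI count matrices that the authors deposited (Cell Ranger 5.0.1, build ASM1176430v1.1) and their table of retained cells. Per the labels and the study's methods, the authors filtered cells in Seurat (R 4.1.2), removed doublets with DoubletFinder, merged libraries without batch correction, and named WT and CF clusters separately with clustifyr. Retained cells had at least 501 genes and at most 19.99% mitochondrial UMIs. The percent of mitochondrial UMIs, UMI totals, cluster and class are the authors' deposited values. The deposited normalized table and lineage scores were not used.

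Counts were summed over cells and scaled to CPM. Log2 ratios used a pseudocount of 1 CPM, and genes needed 10 CPM in either set. With 1 library per group no test was run: intervals (95%) are exact Poisson for levels, conditional binomial for ratios and Clopper-Pearson for shares. A count of 0 is given with the share that 3 counts would make. Ratios were checked on counts simulated by Poisson sampling of the sums alone, which cannot check the intervals for spread between cells. Named genes were the 4 proposed markers, the 20 largest and 15 smallest log2 ratios (first 5 LOC identifiers each way), members of 41 gene lists and the 5 genes most like FOSL1. The cluster, its proposed markers and the lists were chosen with earlier results of these data known. Of 27912 gene names in the matrices 27467 were found in RefSeq's table. Alternatives used TMM (edgeR 4.0.16) and size factors (DESeq2 1.42.0) on these counts. Python 3.11.15 and R 4.3.3 were used. Some genes that this rule would name are not reported here.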

Additional observations from a re-analysis of the deposited data

How the results depend on the processing

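The count of genes at least 2-fold higher, 0, was also 0 with TMM or DESeq2 scaling, a pseudocount of 5 CPM, equal weight per cluster, the quality limits and without the 5% of cells with the most UMIs. It was 1 with genes from 1 CPM, 1 against other ductal cells, 1 with the mean of cell CPM, and, among alternatives added after seeing the data, 1 without clusters 9, 10 and 24 and 14 at 1.5-fold. Against CF cells of all days it was 17. The number of genes at least 2-fold lower in cluster 6, 76, ranged from 53 to 81 under the alternatives other than genes from 1 CPM (188), all days (235) and 1.5-fold (174). All 4 proposed markers stayed above 0 under the 12 alternatives run for them, between 0.29 (KRT15, equal weight per cluster) and 1.54 (FOSL1, all days). They were proposed from these data and each alternative used cells of the same cluster, so nothing is read from the sign. Against cluster 20 alone the median of the 4 was -0.18, with 1 of them 2-fold lower in cluster 6.

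The median genes per cell, cluster 6 minus other CF day 2 cells, was -7.0 at 3000 UMIs, 764.5 without thinning and -17.5 at 10000 UMIs. Without clusters 9, 10 and 24 the log2 ratios of ASPM (0.21), BIRC5 (0.67), CENPF (0.36), MCM4 (0.39), RRM2 (0.43) and UHRF1 (0.10) changed sign, as did IFIT3 (0.0692) without cluster 4. These comparison cells no longer held the clusters richest in those transcripts. The share of day 2 cells in cluster 6 was 11.8% under the quality limits.

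No paired analysis was possible because the labels give no replicate numbers and there is 1 library per genotype and day. Genes under 10 CPM in both sets were not compared, and SCGB1A1, with 1 UMI in cluster 6, shows how wide a counting interval is at such depth.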

Other observations

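Heat shock and dissociation genes had a median log2 ratio of -0.02 over 10 tested genes, from -0.13 (HSPH1) to 0.24 (DNAJB1), in cluster 6 against the other CF day 2 cells. The endoplasmic reticulum stress list had a median of 0.14 over 10 genes, with HERPUD1 at 0.35 and HSPA5, the chaperone BiP, at 0.33. Of 7 p53 targets the median was 0.11, with MDM2 at 0.29 and CDKN1A, an inhibitor of cyclin-dependent kinases, at 572 against 517 CPM. Hypoxia and glycolysis genes had a median of 0.03 over 13 genes. YAP-TEAD targets were lower than most lists, with a median of -0.24 over 8 genes and CCN2 at 230 against 299 CPM.

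Pancreatic transcription factors had a median of 0.00 over 7 tested genes, with FOXA1 at 112 against 98.5 CPM, HES1 at 474 against 475 CPM and PAX6 at 71.9 against 85.7 CPM. PDX1 had 50 UMIs in the whole cluster, at 3.81 against 3.31 CPM. In cells thinned to 10000 UMIs it had a UMI in 3.33% (1.92 to 5.36%) of cluster 6 cells and 3.22% of the other cells, and at 3000 UMIs in 2.05% (10 cells) and 0.931%, so no difference is read from these shares. At 3000 UMIs cluster 9 had 0 of 374 cells, which allows up to 0.802%. Unthinned shares were 9.59% and 6.54%. NOTCH1 had 110 against 80.5 CPM and NOTCH2 43.1 against 54.2 CPM.

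The 4 cluster 6 cells of day 5 held 154534 UMIs in all, of which 2 were FOSL1, 14 S100A9, 109 KRT5 and 43 MUC1, with 0 of TNIP3 and KRT15.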
